A study of Homo sapiens with 44 samples.

Results

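The transcripts that an antibody against N6-methyladenosine (m6A) pulled down were described in untreated Kelly cells after 1 day. The members were the libraries labelled as Kelly, DMSO and 1 day, which are 6 of the 44 libraries of the series: 3 pulldown (RIP) libraries and 3 input libraries. Kelly is an established human neuroblastoma cell line, labelled as wild-type in genotype and as carrying an amplified MYCN gene. The cells were grown in serum-containing medium and received only DMSO, the solvent of the METTL3 inhibitor STM2457 that other cells of the study received at 8 µM. The RIP libraries hold the fragments of sonicated poly(A) RNA that bound the antibody, and the input libraries hold the same kind of RNA without the pulldown. For comparison, the DMSO libraries of Kelly cells at 6 days (6 libraries), of NGP, a further MYCN-amplified neuroblastoma line with the same genotype label, at 6 days (6 libraries), and of subcutaneous Kelly tumours of nude mice given vehicle for 14 days (4 libraries) were fitted in the same way.

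m6A is laid down on mRNA in the nucleus by a complex in which METTL3 is the catalytic subunit and METTL14 its partner, with WTAP, VIRMA, RBM15, ZC3H13 and CBLL1 as accessory subunits. The mark lies mostly in a short motif whose core is GGAC, often followed by T, and is best known from long internal exons and from the region around the stop codon. FTO and ALKBH5 remove it, and reader proteins such as the YTHDF family bind it and are best known for shortening the life of the mRNA. Exon junction complexes are known to keep the writer away from short internal exons.

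The sites below show what this motif looks like in the transcripts at the extremes of the ratio of RIP over input. Of the 12 genes with the highest ratios, 7 carried a GGACT within 100 bases of the first base of the stop codon in their canonical GENCODE 44 transcript (GRCh38), and of the 12 with the lowest ratios 1 did, RPS2. Each line gives 25 bases, 5′ to 3′ on the transcript's strand, around the GGACT nearest the stop codon, with the motif in capitals.
SNRNP35: agagagagagGGACTtcagagatga
TMEM186: tgaagaaaggGGACTgggtacttgg
ARF6: ctcaggggacGGACTctatgagggg
SDHAF1: ctgcatggggGGACTggggaacccg
IER5L: ctcggcgcctGGACTcgagccattg
FBXL15: gagcacagctGGACTgtgtggctgg
SAC3D1: cagagccccaGGACTgggccagagc
RPS2: tccgtgcagcGGACTcaggctccag
The SNRNP35 site lies at chr12:123466217-123466241 on the plus strand, in the coding sequence 52 bases before the stop codon. Those of ARF6 (chr14:49894207-49894231, plus strand) and IER5L (chr9:129176849-129176873, minus strand) are also coding. Those of TMEM186 (chr16:8795853-8795877, minus strand), SDHAF1 (chr19:35995678-35995702, plus strand), FBXL15 (chr10:102423009-102423033, plus strand) and SAC3D1 (chr11:65044747-65044771, plus strand) lie in the 3′ UTR. The RPS2 site (chr16:1962115-1962139, minus strand) is in the coding sequence, 29 bases before the stop codon, in an mRNA that was among the most depleted. The letters alone therefore did not separate the groups: a GGACT within 100 bases of the stop codon was present in 22.9% of the 13032 tested genes with such a transcript, in 25.8% of the enriched and in 20.3% of the depleted ones. A match is a description of the sequence and not a measured site of methylation, because the counts are per gene and carry no position.

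The inputs held 24.14 to 26.56 M counted fragments and the RIP libraries 25.86 to 35.26 M. Between 15293 and 15349 genes had a count in an input and between 13728 and 14433 in a RIP library. The inputs carried the markers of adrenergic neuroblastoma: all 10 of the fixed markers had a mean of at least 10 CPM (counts scaled to library size; by the library total for these markers, and with TMM factors as well for all genes below), with a summed level of 15500 to 17200 CPM. The 10 mesenchymal markers summed to 147 to 159 CPM and COL1A2 was at 0, the 6 blood markers to at most 0.0753 CPM with 4 at 0, the 4 epithelial markers to at most 1.71 CPM with KRT5 at 0, and the 3 endothelial markers to at most 2.86 CPM. In bulk RNA, fewer cells with a transcript and less of it per cell cannot be told apart. Nothing in the labels says that the replicates came from separate cultures, so the p-values below measure the spread between these libraries, which may be technical. Replicates differed by more than sampling noise, more so in RIP (chi-square per degree of freedom of 25.3 to 29.4) than in input (8.14 to 9.09).

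The pulldown reordered most of the transcriptome. Of 13334 genes tested, 4062 (30.5%) were enriched in RIP by at least 2-fold and 4285 (32.1%) were depleted by at least 2-fold at an adjusted p under 0.05 (quasi-likelihood F test of edgeR, Benjamini-Hochberg adjusted over all genes). A further 2195 genes passed the adjusted p with a smaller ratio, and 2792 did not pass it. At any size, 79.1% of the genes were called, and for 83.2% the 3 RIP values and the 3 input values did not overlap. The middle of the distribution of log2 ratios ran from -1.62 to 1.39 (quartiles), and the median standard error of a log2 ratio was 0.175. A ratio is relative: scaling sets the typical gene near 0, so near equality of the enriched and depleted counts follows from the scaling, and a log2 ratio of 0 does not mean that a transcript lacks the mark. The inputs and RIP libraries of this experiment came from separate folders in the deposited headers, so the pulldown and anything that differs between the folders cannot be told apart here. In the other DMSO experiments input and RIP shared a folder. Their values are given below for the 12 highest and 12 lowest genes and for all calls. For lists and other genes they are given only in part.

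The 12 genes with the highest ratios among those with at least 10 CPM in the inputs were SNRNP35, TMEM186, BDNF, NCBP2AS2, ARF6, SDHAF1, RBM12B, IER5L, FBXL15, SAC3D1, TEX19 and ZBTB14, with log2 ratios from 4.82 to 4.09. SNRNP35, a protein of the minor spliceosome (chr12:123458088-123473154, plus strand), had 35.6, 30.7 and 33.5 CPM in the inputs and 936, 941 and 939 CPM in RIP. All RIP libraries lay far above all inputs, with a log2 ratio of 4.82 (SE 0.0739, adjusted p = 1.11e-10, edgeR). BDNF, a neurotrophin that supports the survival of neurons (chr11:27654893-27722058, minus strand), had 12.1 CPM in each input and 256, 271 and 260 CPM in RIP, a log2 ratio of 4.44 (SE 0.0786). ARF6, a small GTPase of membrane traffic at the cell surface, had 47.2, 61.8 and 44.9 CPM in the inputs and 1110, 1070 and 1040 CPM in RIP, a log2 ratio of 4.39. These levels put both among mRNAs of modest abundance that became abundant after the pulldown. SDHAF1, an assembly factor of succinate dehydrogenase, rose from 13.8 to 15.8 CPM in the inputs to 259 to 325 CPM in RIP, and ZBTB14, a zinc finger transcription factor, from 14.4 to 16.5 CPM to 257 to 273 CPM.

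Genes with few exons made up most of these. Of the 12, 9 have 1 or 2 exons in their canonical transcript, against 7.36% of all tested genes with a transcript. All 12 were also enriched at 6 days in Kelly, where 30% of tested genes were, and in NGP, where 21.1% were. In the xenograft, where 3.69% of genes passed as enriched, 9 of them did. For 4 of them more than 20% of the exon bases are shared with a neighbouring gene: SNRNP35 with RILPL1 (44%), RBM12B with FAM92A (28.5%), FBXL15 with PSD (27.7%) and TMEM186 with PMM2 (23%). The counting did not assign fragments on shared bases and used no strand, so these values rest on the other part of each gene. NCBP2AS2 is named as the antisense neighbour of NCBP2, and its 968 to 987 CPM in RIP against 41.8 to 51.3 CPM in input carry no strand either.

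The 12 lowest were INPP5A, GPX4, IFT52, RPLP1, RPS2, LFNG, ODC1, ELN, IDS, RPS26, BCKDHB and BGN, with log2 ratios from -5.76 to -4.83. INPP5A, an inositol phosphate phosphatase, had 13.3, 10.6 and 11.1 CPM in the inputs and 0.451, 0.107 and 0.0392 CPM in RIP (log2 ratio -5.76, SE 0.611, adjusted p = 1.15e-05, edgeR). GPX4, the selenoenzyme that protects membrane lipids from peroxidation (chr19:1103926-1106791, plus strand), had 101, 107 and 90.5 CPM in the inputs and 4.21, 0.641 and 1.68 CPM in RIP (log2 ratio -5.47, SE 0.455). In both, every RIP library lay below every input, and the RIP libraries differed among themselves by several fold at these low counts. ODC1, the first enzyme of polyamine synthesis and a known MYC target, was measured more tightly, with 512, 480 and 530 CPM in the inputs against 15.2, 16.4 and 15.8 CPM in RIP (log2 ratio -5.00, SE 0.0781). RPS2, a protein of the small ribosomal subunit, fell from 2320, 2350 and 2120 CPM to 64.6, 70.1 and 74.9 CPM (log2 ratio -5.02, SE 0.0777).

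None of the 12 lowest has fewer than 3 exons, and their median was 8.5. No GGACT was found in the canonical transcripts of 4 of them, GPX4, RPLP1, ODC1 and RPS26. All 12 were depleted at 6 days in Kelly, where 32.7% of genes were. In NGP, where 19.6% were depleted, 11 were, and GPX4 had a log2 ratio of -0.72. In the xenograft, where 3.75% of genes passed as depleted, RPLP1 and RPS2 did. INPP5A (0.84) and BCKDHB (0.26) had ratios above 0 there and were not called, and the rest had ratios below 0. IDS shares 75% of its exon bases with another annotated gene, and RPLP1, RPS2 and RPS26 belong to families with many processed copies in the genome, so their counts could be split by the authors' alignment.

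**Figure D1:**
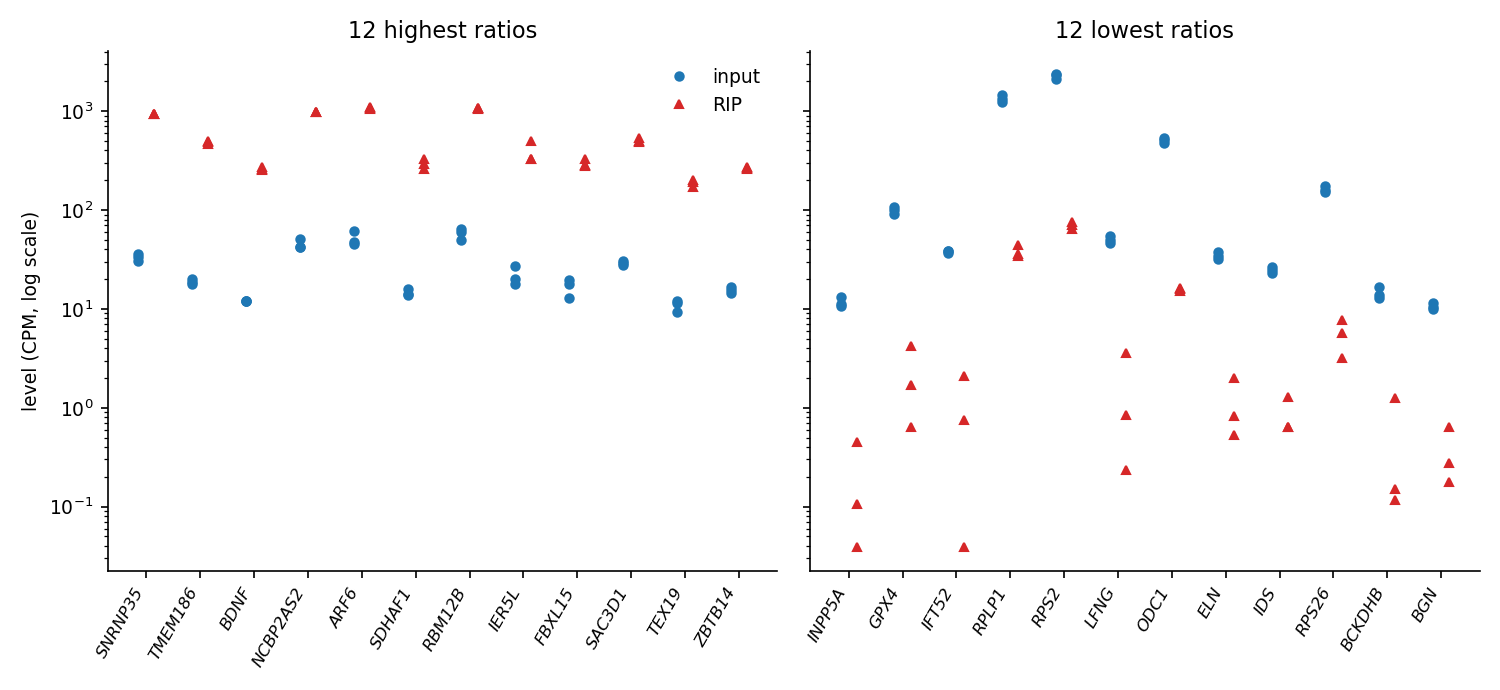
Level in CPM (log axis) of the genes with the 12 highest (left) and 12 lowest (right) ratios of RIP over input, with a point for each of the 3 input (blue circles) and 3 RIP (red triangles) libraries. On the left every RIP value lies above every input value, and on the right every RIP value lies below; RIP values under 1 CPM on the right spread over more than those of RPLP1 and RPS2.

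Of the 5 most abundant mRNAs of the inputs, CHGA was enriched, and GAPDH, MT-CO1, EEF1A1 and EEF2 had ratios below 0. CHGA encodes chromogranin A, the main soluble protein of neuroendocrine secretory granules (chr14:92923150-92935285, plus strand). It had 6760, 7610 and 6700 CPM in the inputs and 29100, 26100 and 25100 CPM in RIP, a log2 ratio of 1.93 (SE 0.0659, adjusted p = 3.13e-09, edgeR). GAPDH, a glycolytic enzyme, went the other way, from 8790, 8080 and 7910 CPM to 387, 380 and 372 CPM (log2 ratio -4.44, SE 0.0546). EEF1A1, the elongation factor that brings aminoacyl-tRNA to the ribosome, had a log2 ratio of -3.11 and MT-CO1, a subunit of cytochrome c oxidase encoded in mitochondria, -2.79. EEF2, the translocation factor, lay just inside the 2-fold line at -0.95 (SE 0.0677) and passed it under other settings, for example at -1.04 with library totals as the only scaling.

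**Figure D2:**
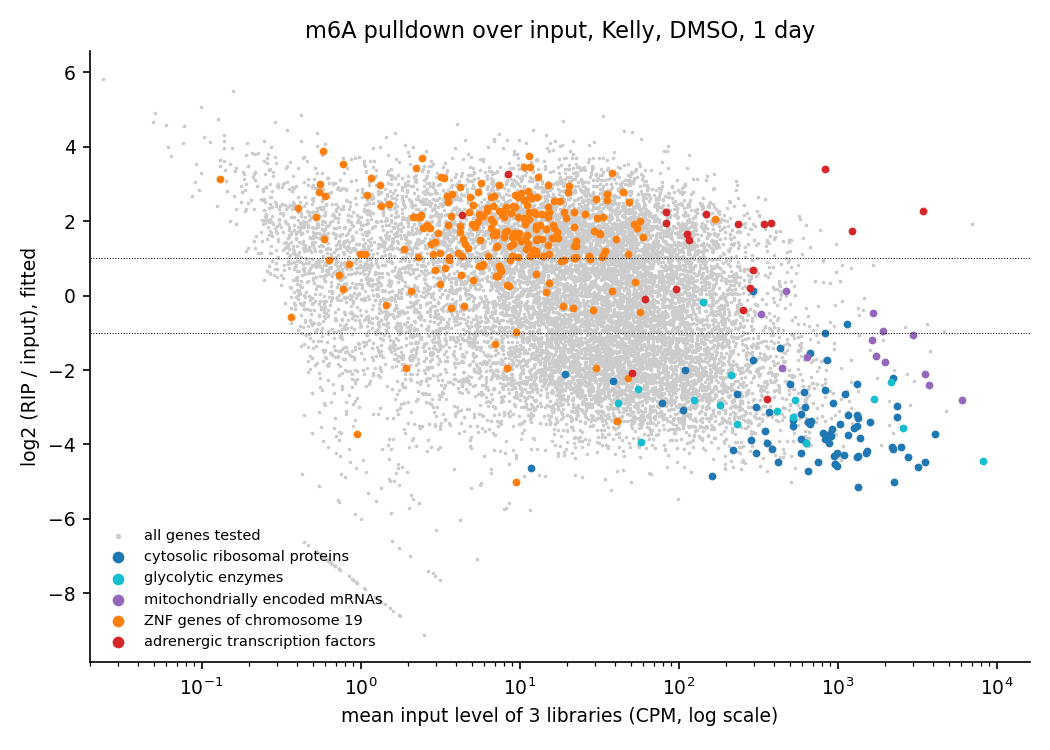
Mean input level of each tested gene (CPM, log axis) against its fitted log2 ratio of RIP over input, with all genes in grey and members of 5 lists in colour; dotted lines mark 2-fold. Ribosomal protein mRNAs (blue) lie low at high input levels, ZNF genes of chromosome 19 (orange) lie high at low levels, and adrenergic transcription factors (red) lie high over a wide range; the thin diagonal at the lower left is genes with almost no RIP counts.

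Among the mRNAs of the cell's basic machinery, depletion was the rule. Of 79 cytosolic ribosomal protein mRNAs, 77 were depleted and 0 enriched (edgeR; 2 of the 79 lay inside the 2-fold line, RPS24 at -0.77 and RPL41 at 0.11, the latter with an adjusted p of 0.147), and their median log2 ratio was -3.64 against -0.031 for all genes. As a share of all counted fragments they made up 8.58%, 8.21% and 8.22% of the inputs and 0.789%, 0.805% and 0.820% of the RIP libraries. RPLP1, an acidic stalk protein, was the lowest: 1330, 1450 and 1230 CPM in the inputs and 44, 34 and 35.8 CPM in RIP, a log2 ratio of -5.14 (SE 0.115). RPL41, which encodes the shortest ribosomal protein, was the highest, with 286 to 303 CPM in the inputs and 297 to 337 CPM in RIP, so its groups overlapped.

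Of 16 glycolytic enzymes 15 were depleted, with a median of -2.92, and their share of the library went from 1.84% ± 0.056 (SD, n = 3) in input to 0.170% ± 0.002 in RIP. HK2, the inducible hexokinase, was the exception at -0.17 (adjusted p = 0.0651, edgeR), while HK1, its constitutive counterpart, was depleted at -2.94. Of 33 translation factors 27 were depleted and 2 enriched, EIF3A at 2.06 and EIF5B at 1.02, the latter only just and not in DESeq2; the median was -2.47. EIF3A, the largest scaffold subunit of initiation factor eIF3, had 563, 591 and 586 CPM in the inputs and 2420 CPM in each RIP library. EIF4H, a cofactor of the helicase eIF4A, was the lowest, at 476 to 485 CPM against 29.2 to 35.1 CPM (log2 ratio -3.89).

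Of 20 chaperones and folding enzymes, mostly cytosolic but with the mitochondrial HSPD1, HSPE1 and HSPA9 among them, 16 were depleted (median -2.24), among them all 8 subunits of the CCT folding ring that were tested and PPIA, cyclophilin A, at -3.72. The 3 enriched members were DNAJB1 at 1.43, HSPA1B at 2.00 and HSPA1A at 2.70. HSPA1A and HSPA1B are near-identical copies, so how the fragments were split between them is uncertain. Of 20 aminoacyl-tRNA synthetases 14 were depleted (median -1.93), with VARS1, the valine enzyme, lowest at -4.32 and HARS1, the histidine enzyme, the only enriched one at 1.03. The HARS1 call was lost under some settings, for example at 0.94 with library totals alone. Of 31 proteasome subunits 23 were depleted (median -1.55) and 1 was enriched, PSMC1 at 1.15, which shares 76.2% of its exon bases with NRDE2; PSMA7 was lowest at -4.34. Of 26 splicing regulators of the SR and hnRNP families 18 were depleted (median -1.44) and 2 enriched, HNRNPF at 2.08 and HNRNPA0 at 1.08.

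Nuclear genes for respiratory chain subunits followed the same direction, with 62 of 76 depleted, 0 enriched and a median of -1.90. For every list said here to have 0 enriched or 0 depleted members at 1 day, the count was also 0 at an unadjusted p under 0.05 and in DESeq2. ATP5MC2, a subunit of the membrane ring of ATP synthase, had 346 to 378 CPM in the inputs and 11.5 to 14.9 CPM in RIP (log2 ratio -4.72, SE 0.114). NDUFC1, a complex I subunit, had the highest ratio at 0.68, below the 2-fold line. The 13 mRNAs encoded in the mitochondrial genome, which the nuclear writer complex does not reach, had a median of -1.62 at a median input of 1740 CPM, with 9 depleted and 0 enriched. MT-CO1 was lowest, with 6520, 5790 and 6000 CPM in the inputs and 802, 966 and 876 CPM in RIP. MT-ATP8 was highest, with 453, 462 and 515 CPM against 483, 528 and 554 CPM, overlapping groups and a log2 ratio of 0.13 (adjusted p = 0.126, edgeR). MT-ATP8 shares 22.2% of its bases with MT-ATP6, and MT-ATP6 lay at -0.95, passing the 2-fold line under some settings.

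Mitochondrial mRNAs are made apart from the nuclear writer complex, but whether they can serve as a reference was not tested. Their median was -1.62 at 1 day, -4.26 in Kelly at 6 days and -0.44 in NGP, so the values below describe 1 day only. Of 13321 nuclear genes, 75% had a ratio above the median mitochondrial mRNA, 47.5% lay above the highest of them and 8.78% below the lowest. The ribosomal protein median of -3.64 was thus lower than every mitochondrial mRNA. Together the mitochondrial mRNAs made up 2.71% to 2.92% of the inputs and 0.794% to 0.920% of the RIP libraries.

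**Figure D3:**
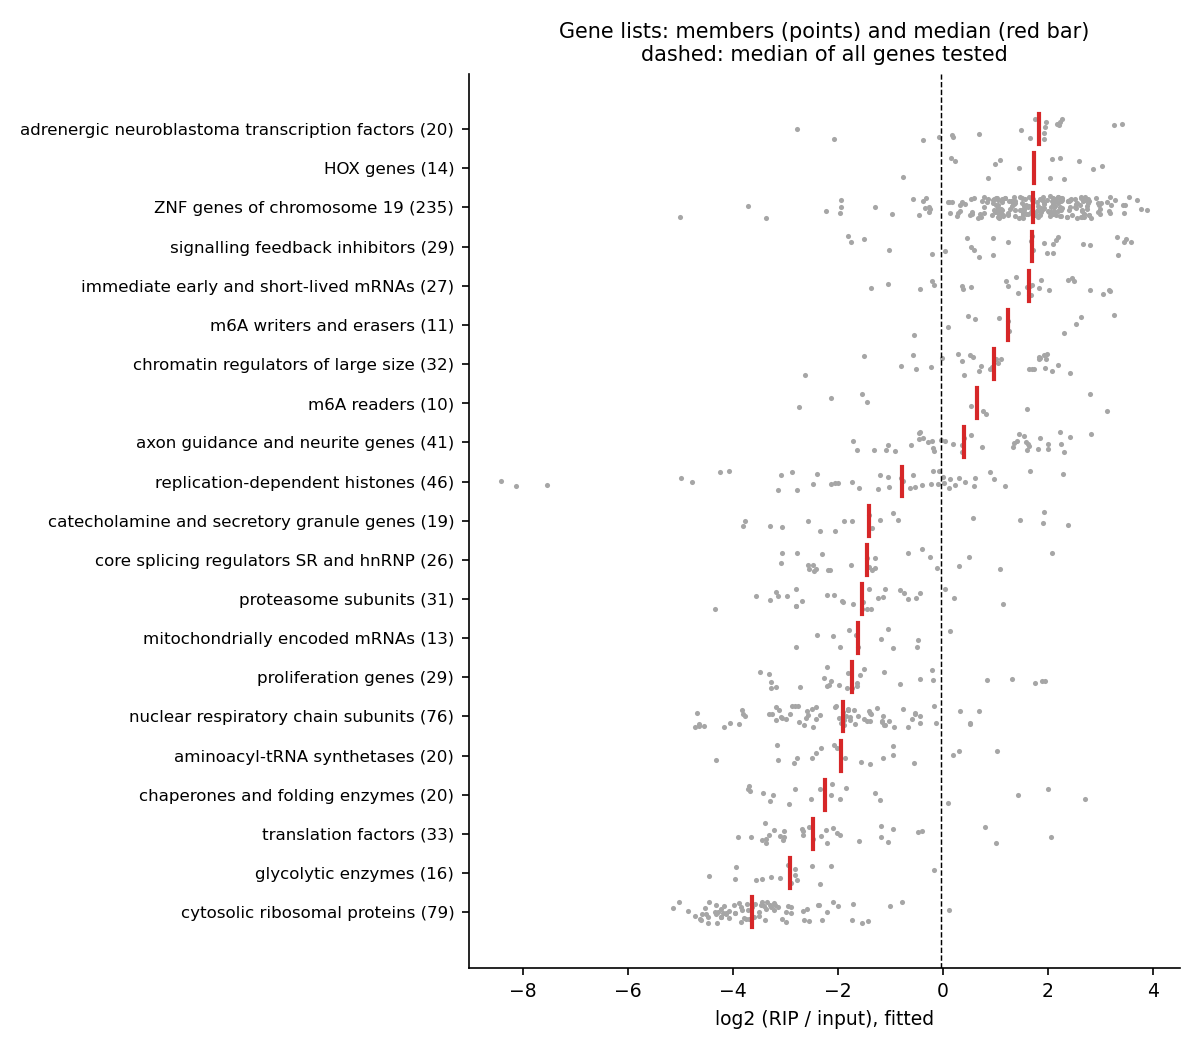
Fitted log2 ratio of RIP over input of each tested member (grey points) of the gene lists, ordered by their median (red bars), with the number of tested members in brackets; the dashed line is the median of all genes tested. Adrenergic transcription factors, HOX genes and chromosome 19 ZNF genes lie at the top, with medians of 1.83, 1.74 and 1.71, and glycolytic enzymes and ribosomal proteins at the bottom, with -2.92 and -3.64.

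Transcription factors that define the adrenergic state of neuroblastoma stood at the other end. Of 20, 13 were enriched and 2 depleted, with a median of 1.83, and they took 0.871% ± 0.0459 (SD, n = 3) of the inputs and 3.54% ± 0.166 of the RIP libraries. HAND2, a basic helix-loop-helix factor of sympathetic neurons (chr4:173524969-173530229, minus strand), had 805, 880 and 802 CPM in the inputs and 9450, 8570 and 8420 CPM in RIP, a log2 ratio of 3.41 (SE 0.0614, adjusted p = 1.84e-10, edgeR). MYCN, the amplified oncogene of this line (chr2:15940550-15947007, plus strand), had 3520, 3620 and 3220 CPM in the inputs and 18100, 15700 and 15800 CPM in RIP, a log2 ratio of 2.26 (SE 0.0655). In both, the RIP libraries lay above all inputs. SIX3 (3.25), SOX11 (2.23), TLX2 (2.20), INSM1 (2.17, from 3.17 to 5.55 CPM in input), HAND1 (1.96), KLF7 (1.94), INSM2 (1.93), GATA2 (1.75) and ISL1 (1.49) were among the other enriched members.

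Not all members of this list were enriched. PHOX2A, a homeobox factor of sympathetic neurons (chr11:72239077-72245664, minus strand) had 356, 384 and 338 CPM in the inputs and 63.8, 41.8 and 51.2 CPM in RIP, a log2 ratio of -2.78 (SE 0.141), with every RIP library below every input. GATA2, a zinc finger factor, had 1150 to 1290 CPM against 4040 to 4330 CPM, while GATA3 had 251, 269 and 237 CPM against 177, 188 and 215 CPM, a log2 ratio of -0.39 (SE 0.087, adjusted p = 0.00229) inside the 2-fold line. LMO1, a transcriptional cofactor, was the other depleted member at -2.07. TBX2 (0.69) and TFAP2B (0.19) passed the adjusted p below 2-fold, and EYA1 (0.18) and SATB1 (-0.08) did not pass it.

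Genes for the catecholamine and granule functions of these cells, taken as a single list, were mostly depleted. Of 19 catecholamine and secretory granule genes 12 were depleted and 4 enriched, with a median of -1.41. TH, the rate-limiting enzyme of catecholamine synthesis, had 573, 746 and 570 CPM in the inputs and 79.3, 68.1 and 44.1 CPM in RIP (log2 ratio -3.30, SE 0.203). The 4 enriched members encode granule proteins: SCG2 at 2.39, CHGA at 1.93, VGF at 1.91 and CHGB at 1.46. Other granule genes of the list, SCG3, SCG5, PCSK1, PCSK2 and CPE, were not among the enriched. Because of CHGA the summed share of the list nevertheless went from 1.28% in input to 2.92% in RIP, so the sum and the median have opposite directions.

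Among axon guidance and neurite genes, 18 of 41 were enriched and 5 depleted, where 30.5% and 32.1% of all tested genes were, with a median of 0.41. EFNB2, an ephrin ligand, was highest with 21.5, 20.3 and 19.8 CPM in the inputs and 149, 130 and 154 CPM in RIP (log2 ratio 2.81, SE 0.101). The depleted ones were L1CAM (-1.72) and NCAM1 (-1.63), adhesion molecules of the axon surface, the netrin receptors UNC5B (-1.32) and UNC5A (-1.04), and the guidance ligand SLIT3 (-1.09).

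Immediate early and other short-lived mRNAs were mostly enriched: 16 of 27, with 2 depleted and a median of 1.64. JUNB, a subunit of the transcription factor AP-1, had 18.3, 26.1 and 18.7 CPM in the inputs and 240, 157 and 173 CPM in RIP (log2 ratio 3.18, SE 0.193). The 2 depleted members were ID3 (-1.37) and ID1 (-1.04), inhibitors of basic helix-loop-helix factors. Of 29 signalling feedback inhibitors 17 were enriched and 4 depleted, with a median of 1.70. SOCS5, an inhibitor of cytokine signalling, had 12.4, 11.1 and 12 CPM in the inputs and 150, 142 and 132 CPM in RIP (log2 ratio 3.58, SE 0.103). The depleted ones were DUSP2 (-1.80), DUSP8 (-1.75), NFKBIA (-1.49) and SOCS7 (-1.02), with DUSP2 at only 5.69 to 6.99 CPM in the inputs and an adjusted p of 0.0484.

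Of 32 large chromatin regulators 16 were enriched and 2 depleted, with a median of 0.98. CHD7, a chromatin remodeller, had 250 to 268 CPM in the inputs and 1350 to 1450 CPM in RIP (log2 ratio 2.43, SE 0.057). The depleted ones are remodeller ATPases as well: SMARCA4 (BRG1), with 941, 975 and 885 CPM against 162, 163 and 132 CPM (log2 ratio -2.62), and CHD3 at -1.51. HOX genes, of which 14 of 39 passed the filter on low counts, had 9 enriched and 0 depleted members, with HOXC8 at 2.58. At a median input of 9.32 CPM they lie low in these cells. Their median was 2 exons per canonical transcript and a log2 ratio of 1.74. Of all 621 tested genes with 2 exons, 74.1% were enriched, with a median of 2.03.

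Proliferation genes were mostly depleted, with 20 of 29 depleted, 4 enriched and a median of -1.73. CCNB2, a mitotic cyclin, was lowest with 83.5, 78.9 and 78.0 CPM in the inputs and 5.08, 8.55 and 7.91 CPM in RIP (log2 ratio -3.48, SE 0.191). The 4 enriched ones were E2F3 (1.94), the kinetochore protein CENPF (1.89), MKI67 (1.76) and MCM3 (1.31). Replication-dependent histone mRNAs, which mostly end without a poly(A) tail, were scarce in these poly(A) libraries (median input 3.54 CPM), and 46 of 62 were tested, with 15 depleted and 3 enriched, H3C10, H3C6 and H2BC6. The depleted share is near the 32.1% of all tested genes. Histone genes are near-identical to each other, and their counts are uncertain.

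Zinc finger genes of chromosome 19, which encode mostly KRAB repressors in large clusters, were mostly enriched. Of 235 tested, 185 were enriched and 7 depleted, with a median of 1.71 at a median input of 8.81 CPM, and their share rose from 0.304%, 0.316% and 0.330% of the inputs to 1.02%, 1.08% and 1.10% of the RIP libraries. ZNF324B had 11.9, 12.3 and 10.2 CPM in the inputs and 147, 146 and 175 CPM in RIP (log2 ratio 3.76, SE 0.122). ZNF738 was the lowest among those of at least 10 CPM, with 38.8 to 44.3 CPM against 1.75 to 7.33 CPM (log2 ratio -3.36). Paralogues in these clusters share sequence, so fragments could be split or lost in alignment.

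Grouping genes by the letters of their symbol gave the same picture with no list chosen by hand. Over the 101 symbol stems with at least 15 tested genes, the highest medians were those of PCDHB (2.77, with 14 of 15 enriched), ZSCAN (2.27), ZFP (1.94, with 17 of 17 enriched), ZBTB (1.88, with 33 of 41), ZNF (1.71, with 358 of 472) and GPR (1.63). PCDHB genes encode clustered protocadherins, neuronal adhesion molecules that are each made from 1 large exon. The lowest were RPS (-3.42), RPL (-3.22), EIF (-2.06), NUP (-2.01), which are nuclear pore proteins, RAD (-2.01), which holds DNA repair genes, and ATP (-1.89), which holds ATP synthase and ion pump subunits.

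The genes of the m6A machinery were themselves captured unequally. Of 11 writers and erasers 7 were enriched and 0 depleted, with a median of 1.23. RBM15, an RNA-binding subunit that brings the complex to its targets (chr1:110338506-110346681, plus strand), had 59.8, 58.0 and 55.4 CPM in the inputs and 598, 517 and 544 CPM in RIP, a log2 ratio of 3.26 (SE 0.0774, adjusted p = 5e-10, edgeR). RBM15B (2.63), WTAP (2.53), ZC3H13 (2.31), METTL14 (1.25) and METTL16 (1.23) were enriched, and so was CBLL1 (1.06), whose RIP libraries ranged from 16.9 to 30.3 CPM and whose call was lost without RIP replicate 1 (0.78). METTL3 itself had 97.8, 86.7 and 86.1 CPM in the inputs and 139, 112 and 128 CPM in RIP, a log2 ratio of 0.48 (SE 0.101, adjusted p = 0.0014), under 2-fold. VIRMA (0.61) was also below 2-fold, FTO (0.09) did not pass the test (adjusted p = 0.404, edgeR) and ALKBH5, a demethylase, was at -0.55.

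Readers lay on both sides of 0: of 10 tested, 3 were enriched and 4 depleted, beside 30.5% and 32.1% of all tested genes. YTHDF2, which recruits the deadenylation machinery (chr1:28736621-28769775, plus strand), had 129, 122 and 119 CPM in the inputs and 1050, 1120 and 1060 CPM in RIP, a log2 ratio of 3.13 (SE 0.0615). Its paralogues YTHDF3 (2.80) and YTHDF1 (1.61) were enriched as well. The nuclear reader YTHDC1 was at 0.76, below 2-fold, and YTHDC2, an RNA helicase, was depleted at -2.12. IGF2BP1, which stabilises bound mRNAs, had 871, 816 and 814 CPM in the inputs and 119, 136 and 121 CPM in RIP (log2 ratio -2.73, SE 0.0709), whereas IGF2BP3 was at 0.54. FMR1 (-1.54) and HNRNPA2B1 (-1.45) were depleted, and PRRC2A (0.82) was called below 2-fold.

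The ratio varied with gene structure, which the comparison did not use. Over the deposited gene models the median fell from 1.96 for 365 single-exon genes to 1.24 for 2 to 4 exons, 0.18 for 5 to 9, -0.35 for 10 to 19 and -0.58 for 20 or more. Merged models can hide introns: RPL18, the lowest single-exon gene of at least 10 CPM at -4.33, has 7 exons in its canonical transcript. By canonical transcripts the medians were 2.20 for 338 single-exon genes, of which 68.6% were enriched, and 2.03 for 621 genes of 2 exons, of which 74.1% were enriched and 2.90% depleted. Genes of 1 or 2 exons made up 17.5% of the enriched and 1.33% of the depleted genes. Several lists with high ratios hold genes of few exons. HOX genes had a median of 2, adrenergic factors and immediate early mRNAs 3 and chromosome 19 zinc finger genes 4. Over all tested genes it was 9. Lists with low ratios had few exons too: 1 for mitochondrial and histone mRNAs, 4 for respiratory chain subunits and 5 for ribosomal proteins. Whether the lists differ from genes of like structure was not tested.

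The longest internal exon ordered the genes with more exons. The median was -0.97 where the longest internal exon had 150 to under 200 bases, -0.74 at 200 to under 300, -0.03 at 300 to under 500, 0.90 at 500 to under 1000 and 1.34 at 1000 bases or more. In the last class, 60.1% of 847 genes were enriched and 3.42% depleted. Genes whose internal exons were all under 150 bases broke the order, with a median of -0.29. The pattern was present at each number of exons: with an internal exon of at least 500 bases the median was 1.61 in genes of 3 to 9 exons, 0.96 in genes of 10 to 19 and 0.57 in genes of 20 or more, against -0.33, -1.21 and -1.64 where the longest internal exon was under 200 bases.

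The last exon, which usually holds the stop codon and the 3′ UTR, showed a similar gradient. The median was -1.29 where it was under 500 bases, -0.58 from 500, 0.02 from 1000, 0.52 from 2000 and 0.76 from 4000 bases. By total exon length the median went from -0.56 under 1000 bases to 0.16 at 8000 or more (Spearman correlation over 13334 genes 0.035), and at 50 CPM or more of input from -1.66 to -0.18, while the number of exons in the canonical transcript correlated at -0.32 and last exon length at 0.278 over 13032 genes. Genes are not independent replicates, so these are descriptions. Each median rests on all 3 RIP libraries: for an internal exon of 1000 bases or more the libraries gave 1.29, 1.28 and 1.25, computed against the mean input.

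**Figure D4:**
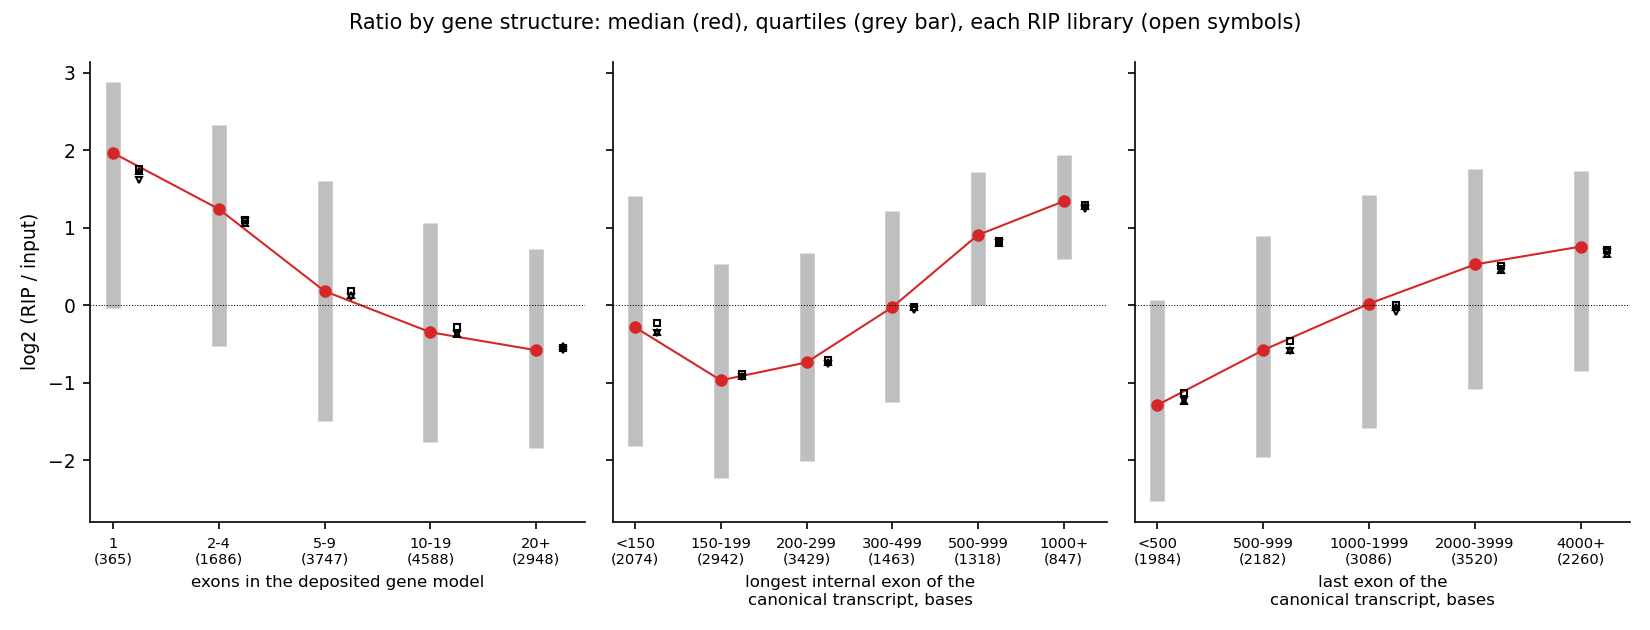
Log2 ratio of RIP over input by exon number of the deposited gene model (left), longest internal exon (middle) and last exon (right) of the canonical transcript in bases, with the number of genes in brackets; red points are medians, grey bars run between the quartiles, and open symbols are the medians of each RIP library over the mean input. Medians fall with exon number from 1.96 to -0.58 and rise with the length of the last exon from -1.29 to 0.76.

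Sequence content was examined in the same way. Where the canonical transcript held no GGACT the median was -0.83 over 1090 genes, against -0.13 for up to 0.5 per kb, -0.05 for 0.5 to 1, 0.22 for 1 to 2 and -0.09 for 2 or more. Any GGACT was found in 95.1% of the enriched, 88.5% of the depleted and 91.6% of all genes. A longer transcript has more places for a match, and the median lengths were 3846, 2936 and 3436 bases. Per kb, the median was 0.988 GGACT in enriched, 0.861 in depleted and 0.927 in all genes. In the 403 bases centred on the stop codon a GGACT was present in 40.7% of enriched, 33.8% of depleted and 38.1% of all genes with a full window; only the transcript's strand was searched. The relation with GC content was weak here (Spearman 0.061 over 13032 genes), whereas in NGP it was -0.505 over 11844 genes. The ratio also fell with abundance, from a median of 1.07 under 1 CPM of input and 0.53 at 1 to 10 CPM to -1.16 at 100 to 1000 CPM and -2.79 for the 87 genes at 1000 CPM or more, of which 78.2% were depleted. Genes could pass the low-count filter through either library type. Those with little input could thus enter by their RIP counts, which sets part of the high median under 1 CPM. Input level is part of the ratio's denominator, and its part in the other patterns was not tested beyond a repeat at higher minimums: at 50 CPM or more of input, the difference between internal exons of 1000 bases or more and of 150 to under 200 was 2.83, against 2.31 over all tested genes. The difference between genes of 1 exon and of 20 or more went the other way, to 1.84 from 2.55, and the medians for 5 to 9, 10 to 19 and 20 or more exons were then alike, at -0.88, -0.91 and -0.90.

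Most calls were found again in other libraries of the same line. Of the genes tested on both days, 79.4% of those enriched at 1 day were enriched at 6 days (82.6% of the 6 day set), and 81.1% of those depleted were depleted at 6 days (81.4% of the 6 day set). Of the enriched genes 6 were called depleted at 6 days and of the depleted genes 20 were called enriched. Over 12580 genes the Spearman correlation of the ratios on the 2 days was 0.896. NGP enriched 46.7% and depleted 41.6% of the Kelly sets (67.1% and 70.4% of its own), with a correlation of 0.628 over 12079 genes. NGP list medians were -1.62 for cytosolic ribosomal proteins, 1.88 for chromosome 19 zinc finger genes and 0.53 for adrenergic transcription factors. Those of aminoacyl-tRNA synthetases (-0.07), chaperones (-0.15) and SR and hnRNP splicing regulators (0.41) lay near or above 0 there. HAND2 (1.33) and HNRNPA2B1 (1.66) were enriched in NGP, and MYCN (0.15), CHGA (0.30) and GATA2 (0.16) were not called. NGP ratios varied with GC content: the median was 0.77 under 40% GC and -1.08 at 60% or more. In Kelly at 1 day these medians were -0.49 and 0.20. The transcript of HNRNPA2B1 has 38.4% GC, and those of MYCN, CHGA and GATA2 have 56.9%, 62.2% and 59.7%. HAND2, enriched in NGP, has 58.5%. Whether GC content accounts for the differences between the lines was not tested. In the xenograft, with 2 libraries per group and 3.69% of genes called enriched, 95.1% of the enriched genes were also enriched at 1 day, and 11.6% of the 1 day set was called there.

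The difference between the days was tested with an interaction term over the 12 DMSO libraries. Of 13765 genes, 3355 (24.4%) had a different ratio at an adjusted p under 0.05 (edgeR), 1920 (13.9%) higher and 1435 (10.4%) lower at 6 days. This split depended on the scaling: with RLE size factors 1548 were higher and 1723 lower, a median shift of -0.11. With library totals alone the counts were 1595 and 1696. Input and RIP came from different folders at 1 day and shared a folder at 6 days. Day and anything that differs between the folders therefore cannot be told apart in this term.

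Mitochondrial mRNAs showed the largest shift of the lists: 11 of 13 had lower ratios at 6 days and 0 higher, and their median went from -1.62 to -4.26. MT-CO1 was at -5.10 at 6 days, and MT-ND4, with 2900 to 3040 CPM in the 1 day inputs and 1320 to 1490 CPM in RIP (-1.05), was at -4.50. The count of 0 higher held at an unadjusted p under 0.05 and in DESeq2, which also called 11 lower. Of 31 proteasome subunits 19 were lower and 3 higher (PSMB5, PSMD2 and PSMD3). Of 76 respiratory chain subunits 32 were lower and 5 higher (COX5B, COX8A, CYC1, NDUFA11 and NDUFAB1). Of 79 ribosomal protein mRNAs 36 were lower and 6 higher, with a median of -4.47 at 6 days. Of 41 axon guidance genes 13 were higher and 1 lower, PLXNB2. Of 33 large chromatin regulators 8 were higher and 0 lower (1 lower both at an unadjusted p under 0.05 and in DESeq2). The median difference between the days was -2.53 for mitochondrial mRNAs and -0.49 for ribosomal proteins, against 0.08 for all genes tested.

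The ratios given for each day come from fits of that day alone, and the differences from the joint fit, which scales all 12 libraries together, so a difference is not exactly the later ratio minus the earlier. Among the m6A machinery, ALKBH5 had a higher ratio at 6 days (1.54 against -0.55 at 1 day; difference 2.33, SE 0.252, adjusted p = 2.94e-05, edgeR), and so had METTL16 by 1.36, while WTAP was lower, with a difference of -0.80, and METTL3 did not pass the test (adjusted p = 0.671). Of the 20 adrenergic transcription factors tested, 5 were higher and 2 lower at 6 days, beside 13.9% and 10.4% of all genes tested. The higher ones were TBX2 (0.99), TFAP2B (0.96), KLF7 (0.80), PHOX2A (0.72) and GATA2 (0.45), and the lower ones HAND1 (-0.61) and MYCN (-0.57). HAND2, the most enriched of the list among those of at least 10 CPM, was at 3.41 on day 1 and 3.48 on day 6. It did not pass the test of the difference (0.30, SE 0.13, adjusted p = 0.118, edgeR). The MYCN call was lost when any library was left out other than RIP replicates 2 and 3 at 1 day and RIP replicate 3 at 6 days, with an adjusted p of 6.7e-05 to 0.0966 over the alternatives, and the GATA2 call was lost with RLE size factors (adjusted p = 0.0579).

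**Figure D5:**
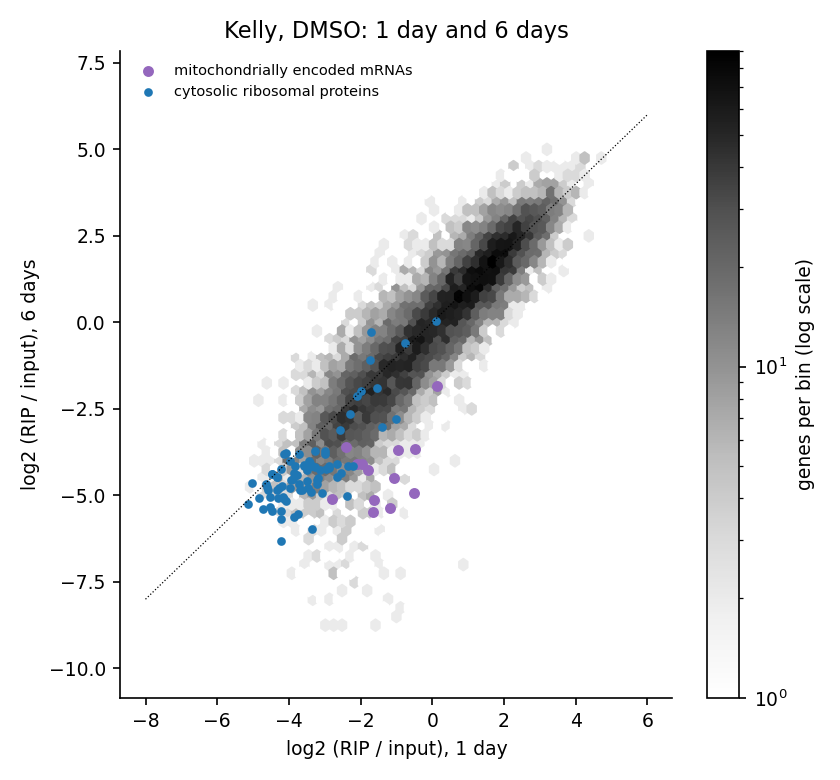
Fitted log2 ratio of RIP over input in Kelly DMSO cells at 1 day (horizontal) and 6 days (vertical), with the number of genes per hexagon in grey on a log scale and the dotted line of equality. Genes follow the line (Spearman correlation 0.896), while the mitochondrially encoded mRNAs (purple) lie below it, with medians of -1.62 and -4.26.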

How the data were processed

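Kelly DMSO libraries at 1 day (3 input, 3 RIP) were grouped by their labels. The authors deposited 1 table of raw fragment counts per library. Per the file headers, featureCounts 1.5.3 counted read pairs on exons per gene name, with protein-coding genes of GENCODE 33 (GRCh38), with no strand or multi-overlap option, so fragments shared by genes were not counted. Per the submitters' processing notes, Trimmomatic 0.36 and HISAT2 2.1.0 were used. Per the labels, spike-in RNA was added; it is not analysed here.

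The main test was edgeR 4.0.16 (R 4.3.3; glmQLFit, glmQLFTest, two-sided) with TMM factors, filterByExpr (minimum count 10, total 15) and Benjamini-Hochberg adjustment at 0.05. Enriched and depleted mean an adjusted p under 0.05 and a log2 ratio of at least 1 or at most -1. CPM values are TMM-scaled (cell type markers by library totals), and standard errors come from the log2 ratio and F. Other experiments were fitted alone, and the days by an interaction. The fits were also run on simulated counts in which few genes changed and all genes had the same dispersion. Most genes differ in these data, so that run did not test the scaling used here. Medians per RIP library used a pseudocount of 0.5 CPM. Structure and motifs came from canonical GENCODE 44 transcripts, matched for 97.7% of tested genes, with 96.8% of canonical exons identical in the deposited models.

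The members, gene lists and tests were chosen with earlier results of these data known, and bins of internal exon, last exon and stop codon windows were added after values had been seen. Named by rule were the 12 highest and 12 lowest ratios at 10 CPM or more without overlap, the 5 most abundant genes, the highest and lowest of each list, all m6A, adrenergic and mitochondrial genes, and the 3 largest differences between days in each direction. Some members of the adrenergic list are not reported here by name. Other genes were named after their values were seen. Alternatives were RLE factors, library totals, DESeq2 1.42.0, no filter (at least 1 count), a replicate block, all 12 Kelly 1 day libraries, glmTreat, higher CPM minimums and leaving out each library. A floor of 3 counts per library covers counting error only.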

Additional observations from a re-analysis of the deposited data

Results flagged for a closer look

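The ratio of RIP over input differed between the Kelly DMSO experiments at 6 days and at 1 day for 3355 genes (edgeR interaction term, adjusted p under 0.05). The values below are log2 differences, 6 days minus 1 day, for genes named here.

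The largest rises had moderate inputs and low RIP levels at 1 day. ASAP2, which shares 30.4% of its exon bases with ITGB1BP1, differed by 5.263 (SE 0.265): its RIP libraries had 8.72, 9.96 and 5.65 CPM at 1 day and 120, 117 and 115 CPM at 6 days, beside inputs of 42.6 to 49.2 and 16.9 to 18.2 CPM. FAM171A2 differed by 5.061, with RIP at 20 to 30 CPM and then 1210 to 2180 CPM. TNKS2, a tankyrase, differed by 4.01, with RIP at 4.46 to 4.61 CPM and then 20.2 to 36.3 CPM.

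The largest falls were genes with 0 counts in all 3 RIP libraries at 6 days, so the fitted differences depend on the prior count and are no bounds: -8.595 for CAT (catalase), -8.365 for ITCH (a ubiquitin ligase) and -7.941 for CCNC (a cyclin of the Mediator complex). Against a floor of 3 counts per library (0.299 CPM), CAT was at least 74.5-fold lower in RIP than in input at 6 days, ITCH at least 38.6-fold and CCNC at least 37.3-fold. At 1 day the same genes were 9.54, 5.80 and 7.55-fold lower, by mean CPM.

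Of the 12 highest genes at 1 day, the ratio was higher at 6 days for SNRNP35 by 1.016, IER5L by 0.852 and RBM12B by 0.753, and lower for ARF6 (-1.623) and BDNF (-0.537). Of the 12 lowest it was higher for BGN by 2.945, IDS by 1.843 and RPS2 by 0.596. The calls of BDNF and IDS were lost in 8 and 11 of 17 alternatives, with adjusted p of up to 0.124 and 0.083.

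Among mitochondrial mRNAs the difference was -4.221 for MT-ND6, -3.954 for MT-CYB, -3.605 for MT-ND4L, -3.295 for MT-ND5, -3.236 for MT-ND4, -2.962 for MT-ND2, -2.527 for MT-ATP6, -2.254 for MT-ND1, -2.097 for MT-CO1, -1.91 for MT-ND3 and -1.776 for MT-CO3. All of these calls held in each of the 17 alternatives.

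In the m6A machinery the difference was 2.328 for ALKBH5, 1.359 for METTL16, 0.482 for RBM15B, -0.413 for PRRC2A, -0.538 for YTHDF3, -0.804 for WTAP and -1.034 for HNRNPA2B1. The calls of RBM15B, YTHDF3 and PRRC2A were lost in 8, 10 and 2 of the alternatives, that of PRRC2A without input replicate 1 or 3 of the 6 day libraries. Among adrenergic factors it was 0.993 for TBX2, 0.955 for TFAP2B, 0.801 for KLF7, 0.722 for PHOX2A, 0.448 for GATA2, -0.568 for MYCN (lost in 9 alternatives) and -0.61 for HAND1. Day and anything that differs between the folders cannot be told apart in any of these.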

How the results depend on the processing

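Over 13 alternatives the genes enriched at 1 day numbered 3436 (glmTreat) to 4106 and those depleted 3683 to 4649, all within 1.5 times the counts of 4062 and 4285. Leaving out each library gave 3786 to 4106 enriched and 4182 to 4541 depleted. The replicate numbers did not pair the samples (correlations of deviations for the same number of 0.043, -0.059 and 0.076). With the replicate block 3896 genes were enriched and 4290 depleted, and for the days 1479 were higher and 1111 lower. For the days, DESeq2 gave 1870 higher and 2177 lower against 1920 and 1435 (the cause was not tested), and leaving out each library gave 1483 to 2586 higher and 991 to 1841 lower. Of 1452 values of 121 named genes under alternatives, 1433 kept their side of the threshold and direction; the others belong to EEF2, HARS1, CBLL1, MT-ATP6 and FAM171A2, all near 2-fold. The 39 named differences between days that were called kept their direction throughout, and 7 of them lost their call in at least 1 of 17 alternatives. The list medians changed sign in 0 of 242 cases. At 10 and 50 CPM minimums, 13 and 24 of 90 structure bins changed sign, while the median of all genes moved to -0.39 and -0.85.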
